A study of Capra hircus with 6 samples.

Results

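YAP (gene YAP1), TAZ (gene WWTR1), the 4 TEAD transcription factors and the vestigial-like cofactors VGLL3 and VGLL4 form the nuclear arm of the Hippo pathway. They were taken as 8 named rows out of 16285 genes measured in adipose mesenchymal stem cells of the goat (Capra hircus), which grow from the stroma of fat tissue and can be induced to become adipocytes. All 8 were found in the deposited tables, and all 8 passed the filter on low values that left 10761 genes for testing. RNA sequencing gave 3 libraries labelled as overexpressing YAP and 3 control libraries with the wild-type genotype, and the labels of both groups record the same treatment, adipogenic differentiation. The series' design text speaks of cells overexpressing TAZ, whereas the sample labels name YAP, and the promoter, the duration of differentiation and the number of animals or clones are not stated in the sources used here. Unused columns of the deposited YAP table are headed pcDNA, the name of an expression vector, and whether the YAP or the control libraries come from cells carrying it is not stated in the labels. Nothing in the labels says that the replicates are separate cultures, so p-values measure only how far these libraries scatter, and that scatter may be technical.

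YAP and TAZ are coactivators without a DNA-binding domain of their own. When the kinases of the Hippo cascade are active, both are phosphorylated, held in the cytoplasm by 14-3-3 proteins and degraded, and when the cascade is quiet they enter the nucleus and bind TEAD factors, which carry them to DNA. VGLL3 and VGLL4 bind TEAD factors through short tondu motifs, and VGLL4 is known as a competitor of YAP for TEAD. In mouse stromal cells TAZ is known to favour bone over fat formation by restraining PPARG, and VGLL3 has been described as an inhibitor of mouse adipocyte differentiation.

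Of the 8 genes, 1 was lower and 1 was higher in the libraries labelled YAP. WWTR1 was lower, at 0.670 times the control level, VGLL3 was higher, at 1.58 times the control level, and YAP1 itself and the 4 TEAD genes did not pass the test. Levels are FPKM, in which a gene's fragments are divided by the length of its model and by the total counted in that library, and changes are differences in log2(FPKM + 1), labelled YAP minus control, tested with limma at a Benjamini-Hochberg adjusted p of 0.05 over the 10761 genes. In the same test 35.9% of all genes passed, 12.9% higher and 23% lower, so 2 of 8 members, 25.0%, is a share no larger than the background. The median change of the 8 members was 0.07 and that of all tested genes was -0.10, and 7 of the 8 members had a positive difference against 36.3% of all tested genes. Among these positive differences, those of YAP1 (0.01), TEAD2 (0.01) and TEAD1 (0.04) were near 0, and their signs turned when single libraries were left out. The count of 7 is therefore not a common rise of the members.

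YAP1, the gene named in the labels, stood at 28.4, 25.6 and 28.2 FPKM in the libraries labelled YAP, against 25.8, 27.0 and 28.9 FPKM in control libraries. The groups overlapped, and the highest control library was above each library labelled YAP. The difference was 0.01 (SE 0.08, limma adjusted p = 0.95), and its 95% interval ran from -0.17 to 0.19, which corresponds to between 0.889 and 1.14 times the control level of FPKM + 1. The exact permutation test (two-sided, on group means) gave p = 1, where 3 against 3 libraries cannot give less than 0.1. Each YAP1 value rested on 4280 to 5385 reads. As the transcript was not measurably raised, the group is called the libraries labelled YAP in all that follows.

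WWTR1, which encodes TAZ, had 21.9, 19.2 and 23.1 FPKM in the libraries labelled YAP, against 30.2, 29.9 and 35.9 FPKM in control libraries. All 3 libraries labelled YAP lay below the lowest control library. The means were 21.4 ± 1.98 FPKM in the libraries labelled YAP and 32.0 ± 3.38 FPKM in control libraries (SD, n = 3 each), 0.670 times the control level. The log2 difference was -0.56 (SE 0.10, 95% interval -0.77 to -0.34, limma adjusted p = 0.00126, exact permutation p = 0.1). A separate row carries the symbol TAZ, but the deposited description identifies it as tafazzin, a mitochondrial enzyme that remodels cardiolipin and is unrelated to the coactivator. That row read 8.77, 8.99 and 7.84 FPKM in the libraries labelled YAP and 7.37, 6.53 and 5.40 FPKM in control libraries, a difference in the opposite direction (log2 difference 0.37, SE 0.11, limma adjusted p = 0.0224), and its call was lost in 4 of 12 alternative analyses.

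**Figure D1:**
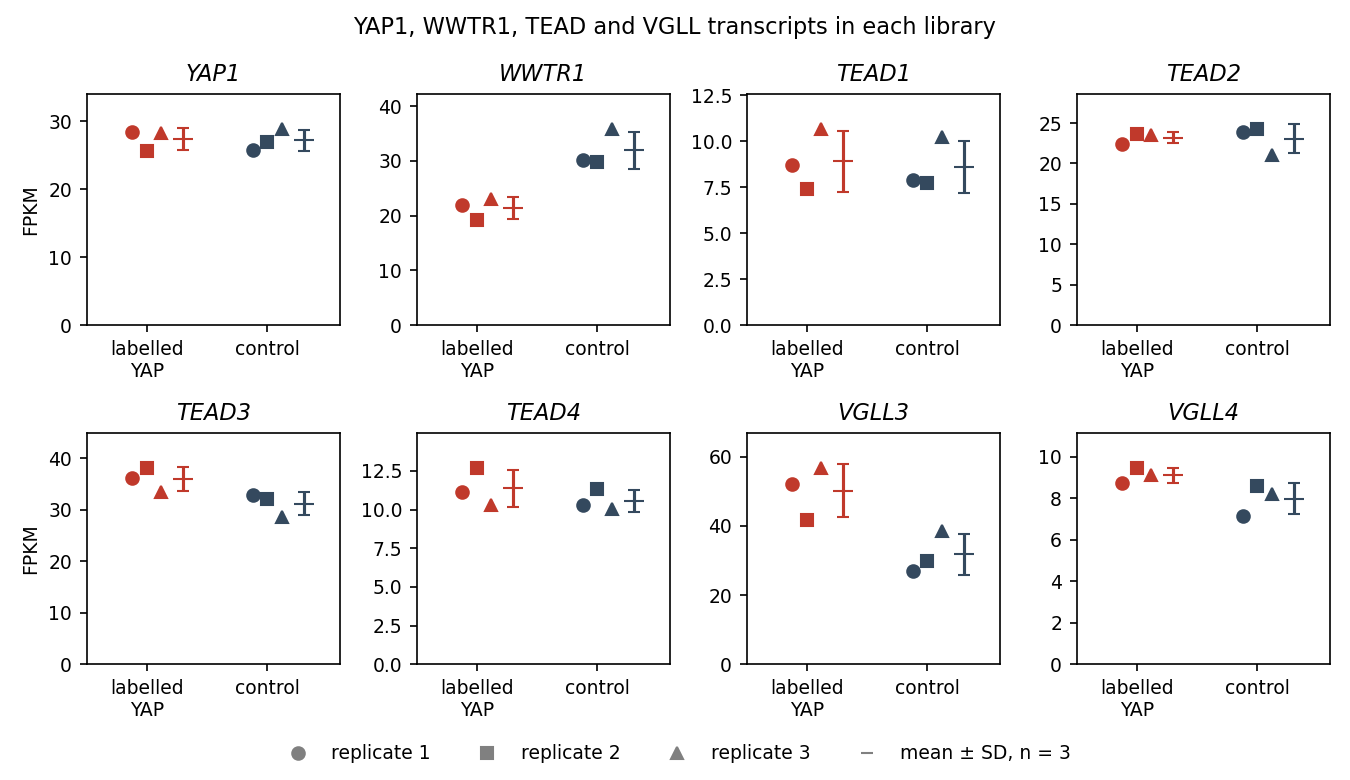
FPKM (vertical axes, each starting at 0) of the 8 genes in each library, with the libraries labelled YAP left and the control libraries right in every panel; symbols mark replicate numbers, and bars give the mean ± SD of 3 libraries. The 3 WWTR1 values of the libraries labelled YAP, 19.2 to 23.1, lie below all control values, the 3 VGLL3 values, 41.8 to 56.8, lie above them, and the YAP1 values of the groups overlap.

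The balance between the coactivators differed between the groups. WWTR1 was 0.772, 0.752 and 0.819 times the YAP1 level in the libraries labelled YAP and 1.17, 1.11 and 1.24 times the YAP1 level in control libraries. YAP1 thus had the higher FPKM of the pair in every library labelled YAP, and WWTR1 in every control library. Per length of gene model, WWTR1 made up 43.8 ± 1.08% of the summed YAP1 and WWTR1 transcripts in the libraries labelled YAP and 53.9 ± 1.42% in control libraries (SD, n = 3 each). The sum itself was 50.3, 44.8 and 51.3 FPKM in the libraries labelled YAP, against 56.0, 56.8 and 64.8 FPKM in control libraries. The summed coactivator transcripts were thus lower in each library labelled YAP than in any control library. These ratios and sums are combinations chosen for description and were given no test.

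The TEAD factors, which bind DNA and recruit YAP or TAZ, are related proteins whose expression differs between tissues. TEAD3 was the most abundant of them and the one with the widest separation of the groups, with 36.1, 38.1 and 33.4 FPKM in the libraries labelled YAP and 32.9, 32.1 and 28.7 FPKM in control libraries. The groups did not overlap for TEAD3, and the difference of 0.20 (SE 0.08, 95% interval 0.01 to 0.38) did not pass the threshold (limma p = 0.0396, limma adjusted p = 0.092, exact permutation p = 0.1). It passed when libraries were scaled by median-of-ratios factors (0.29, limma adjusted p = 0.0279). Under that scaling 29.6% of all genes passed and 3 of the 8 members did, TEAD3 and VGLL3 higher and WWTR1 lower.

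TEAD2 had 22.4, 23.6 and 23.6 FPKM in the libraries labelled YAP and 23.9, 24.3 and 21.0 FPKM in control libraries. TEAD4 had 11.1, 12.7 and 10.3 FPKM in the libraries labelled YAP and 10.3, 11.3 and 10.04 FPKM in control libraries. Both genes overlapped between the groups. The difference for TEAD2 was 0.01 (95% interval -0.17 to 0.19, limma adjusted p = 0.938), and that for TEAD4 was 0.10 (95% interval -0.11 to 0.31, limma adjusted p = 0.461).

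TEAD1 was the lowest of the TEAD genes, with 8.70, 7.38 and 10.7 FPKM in the libraries labelled YAP and 7.89, 7.71 and 10.3 FPKM in control libraries. Its libraries varied more within each group than the groups differed, by 1.45-fold between the highest and lowest library labelled YAP and 1.33-fold between the highest and lowest control library. The difference was 0.04 with the widest interval of the 4 TEAD genes (SE 0.13, 95% interval -0.25 to 0.34, limma adjusted p = 0.828).

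Summed over the 4 genes, TEAD transcripts reached 78.3, 81.8 and 78.0 FPKM in the libraries labelled YAP and 75.0, 75.4 and 70.0 FPKM in control libraries. TEAD3 supplied 45.2 ± 2.00% of the sum in the libraries labelled YAP and 42.4 ± 1.44% in control libraries, and TEAD2 supplied 29.2 ± 0.86% in the libraries labelled YAP and 31.4 ± 1.17% in control libraries (SD, n = 3 each). The shares of TEAD1 and TEAD4 were 11.3 ± 2.34% and 14.3 ± 1.17% in the libraries labelled YAP and 11.8 ± 2.47% and 14.4 ± 0.66% in control libraries. All 4 shares overlapped between the groups. Summed YAP1 and WWTR1 stood at 0.642, 0.548 and 0.659 times the summed TEAD level in the libraries labelled YAP and at 0.747, 0.754 and 0.925 times that level in control libraries, without overlap.

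**Figure D2:**
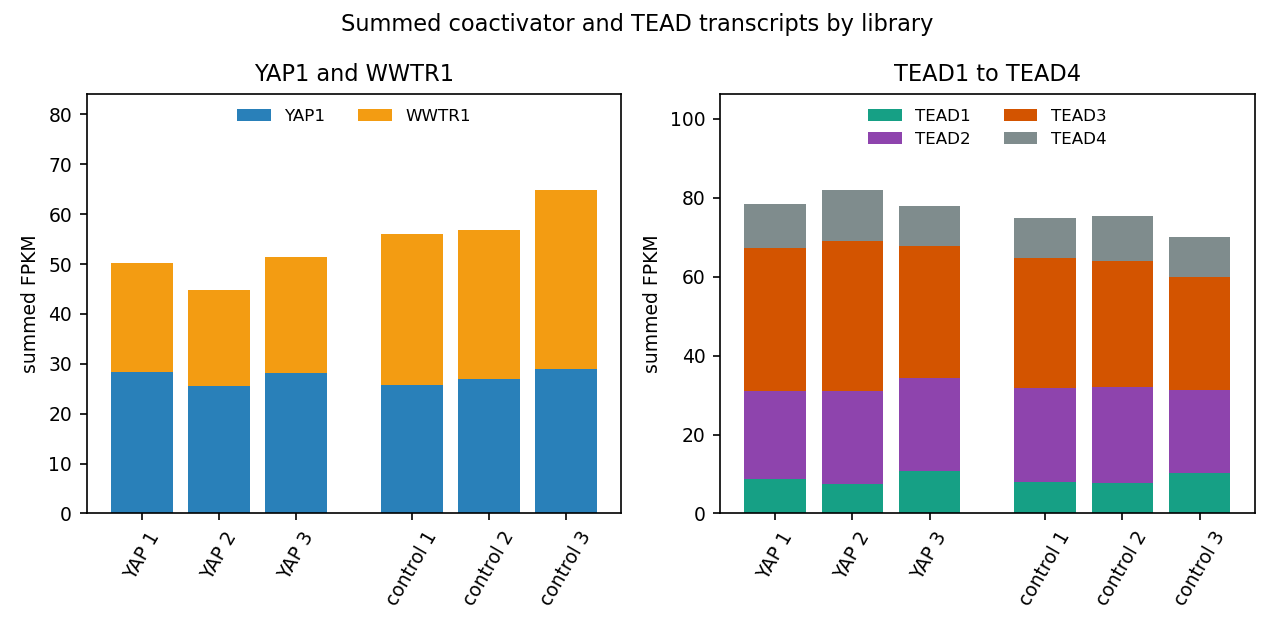
Stacked bars of FPKM (vertical axes) of YAP1 and WWTR1 (left panel) and of TEAD1 to TEAD4 (right panel) in each library, libraries labelled YAP left of control libraries. The WWTR1 segment is shorter in every library labelled YAP, which brings the coactivator sum to between 44.8 and 51.3 FPKM there and 56.0 and 64.8 FPKM in control libraries, whereas the TEAD segments keep similar proportions.

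VGLL3 was the member with the largest difference. It had 52.1, 41.8 and 56.8 FPKM in the libraries labelled YAP, against 27.0, 29.8 and 38.5 FPKM in control libraries, and the lowest library labelled YAP was above the highest control library. The means were 50.2 ± 7.70 FPKM in the libraries labelled YAP and 31.8 ± 5.98 FPKM in control libraries (SD, n = 3 each), 1.58 times the control level. The log2 difference was 0.65 (SE 0.14, 95% interval 0.35 to 0.95, limma adjusted p = 0.0037, exact permutation p = 0.1), and each value rested on 3462 to 7741 reads. Set beside WWTR1, VGLL3 stood at 2.38, 2.17 and 2.46 times the WWTR1 level in the libraries labelled YAP and at 0.895, 0.999 and 1.07 times that level in control libraries.

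VGLL4, the competitor of YAP for TEAD binding, had 8.71, 9.46 and 9.10 FPKM in the libraries labelled YAP and 7.13, 8.57 and 8.19 FPKM in control libraries. The groups did not overlap, by a margin of 8.71 against 8.57 FPKM, and the difference of 0.17 (SE 0.09, 95% interval -0.03 to 0.37) did not pass (limma adjusted p = 0.162, exact permutation p = 0.1). With WWTR1, VGLL3 and TEAD3, VGLL4 was 1 of 4 members whose groups did not overlap, which was also so for 48.3% of all tested genes. Of the other vestigial-like genes, VGLL2 was above 0 in 1 library labelled YAP, set at 1 read, and had 0 reads in the other 5 libraries. These values are at or under the floor of 3 reads, and VGLL1 is not analysed here.

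**Figure D3:**
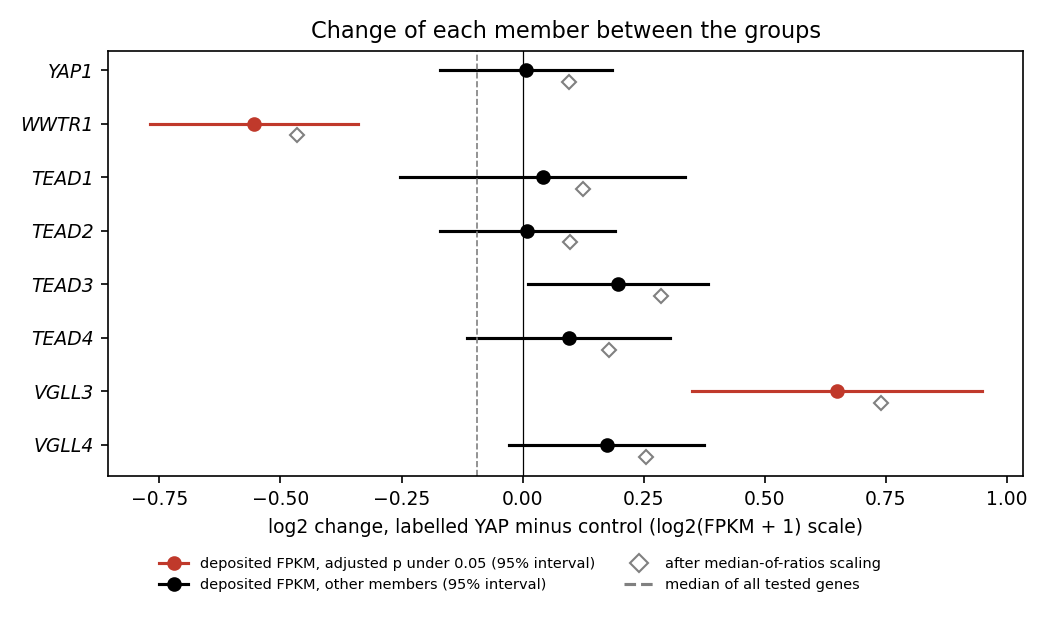
Difference in log2(FPKM + 1), labelled YAP minus control, with 95% intervals from limma (horizontal axis) for the 8 genes; open diamonds give the difference after median-of-ratios scaling, and the dashed line marks the median of all tested genes, -0.10. WWTR1 at -0.56 and VGLL3 at 0.65 are the members past the threshold, and scaling moves every member to the right without changing the sign of any.

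FPKM is scaled by the length of the gene model, so levels of different genes can be set side by side only approximately. The lengths of the transcripts actually expressed were not measured, and the handling of reads shared by related genes is not stated. In the libraries labelled YAP the order of mean FPKM was VGLL3, TEAD3, YAP1, TEAD2, WWTR1, TEAD4, VGLL4 and TEAD1. In control libraries it was WWTR1, VGLL3, TEAD3, YAP1, TEAD2, TEAD4, TEAD1 and VGLL4. VGLL3 ranked first in all 3 libraries labelled YAP, and TEAD3 was second in each of them. Among control libraries WWTR1, VGLL3 and TEAD3, at means of 32.0, 31.8 and 31.2 FPKM, could not be placed in order beyond their spread, nor could TEAD3 and YAP1, TEAD4 and TEAD1, or TEAD1 and VGLL4. In the libraries labelled YAP the neighbours whose ranges overlapped were TEAD2 and WWTR1, at 23.2 and 21.4 FPKM, and VGLL4 and TEAD1, at 9.09 and 8.92 FPKM. Placed among all tested genes of the same library by FPKM, WWTR1 lay at percentiles 69.7 to 74.7 in the libraries labelled YAP and 78.4 to 82.1 in control libraries. VGLL3 lay at percentiles 84.9 to 89.1 in the libraries labelled YAP and 76.1 to 83.5 in control libraries, and YAP1 lay between percentiles 75.2 and 78.9 in all 6 libraries.

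Several members shared their order of libraries within the groups. In both groups replicate 3 was the library with the highest WWTR1, TEAD1 and VGLL3 and with the lowest TEAD3 and TEAD4. Among the libraries labelled YAP, replicate 2 had the lowest YAP1, WWTR1, TEAD1 and VGLL3 and the highest TEAD2, TEAD3, TEAD4 and VGLL4. The gene models of TEAD1, WWTR1 and VGLL3 are 10275, 4750 and 3668 bases long and those of TEAD3 and TEAD4 are 3207 and 2653 bases long. Length did not order all members, since VGLL4, at 4585 bases, was highest in replicate 2 of both groups, and YAP1, at 5135 bases, was highest in replicate 1 of the libraries labelled YAP. Across the 10761 tested genes, which share libraries and are not independent, Spearman's rho between gene model length and the excess of replicate 3 over the other libraries of its group was 0.523 among the libraries labelled YAP and 0.427 among control libraries. For replicate 2 it was -0.57 among the libraries labelled YAP and -0.496 among control libraries. For the difference between the groups it was 0.07. With the length trend removed from each library, an alternative added after seeing the data, WWTR1 (-0.57, limma adjusted p = 0.000231) and VGLL3 (0.64, limma adjusted p = 0.00258) kept their calls, and TEAD1 stood at 0.00 (limma adjusted p = 0.992).

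Genes that work with YAP and TAZ were counted in the same test, in which 35.9% of all genes passed, 12.9% higher and 23% lower. Of 14 tested genes of the Hippo kinase cascade, 1 was higher and 3 were lower (28.6% called, median change -0.17). WWC1, a scaffold that promotes LATS kinase activity, stood at 5.60, 5.30 and 5.18 FPKM in the libraries labelled YAP and 14.7, 11.7 and 11.8 FPKM in control libraries (log2 difference -1.11, limma adjusted p = 9.61e-06). Its paralogue WWC2 went the other way, with 11.9, 10.4 and 12.5 FPKM in the libraries labelled YAP and 6.30, 6.23 and 7.04 FPKM in control libraries (log2 difference 0.75, limma adjusted p = 0.00013). MAP4K4, a kinase that acts in parallel to MST kinases on LATS, was lower, at 25.6 ± 1.24 FPKM in the libraries labelled YAP and 35.3 ± 3.02 FPKM in control libraries (SD, n = 3 each).

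Of 12 tested cytoplasmic anchors, 1 was higher and 7 were lower (66.7% called against 35.9% of all genes, median change -0.31). The 7 lower genes were the angiomotin relative AMOTL1 and all 6 genes of 14-3-3 proteins on the list, the proteins that hold phosphorylated YAP and TAZ in the cytoplasm. YWHAZ stood at 136 ± 5.55 FPKM in the libraries labelled YAP and 205 ± 13.8 FPKM in control libraries (log2 difference -0.59, limma adjusted p = 0.000199), and YWHAH stood at 89.9 ± 4.03 FPKM in the libraries labelled YAP and 133 ± 10.2 FPKM in control libraries (SD, n = 3 each). YWHAE, the most abundant anchor, stood at 203 ± 1.48 FPKM in the libraries labelled YAP and 250.5 ± 5.28 FPKM in control libraries, and its call was lost without YAP replicate 1 (limma adjusted p = 0.0521). After median-of-ratios scaling 3 anchors were lower instead of 7, when 13.5% of all genes were lower, and 4 of the 12 passed in either direction, near the background of 29.6%. Without YAP replicate 1 the number of lower anchors was 4, when 13% of all genes were lower.

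Of 8 tested genes of YAP and TAZ degradation, 0 were higher and 2 were lower by limma (25.0% called, median change -0.08), also 0 higher at an unadjusted p under 0.05 and 0 by limma-voom on reads recovered from the FPKM steps. SKP1, a subunit of the SCF ubiquitin ligase, had 60.4 ± 2.29 FPKM in the libraries labelled YAP and 73.9 ± 3.58 FPKM in control libraries (limma adjusted p = 0.0119). OTUB2, a deubiquitinase, had 0.850 ± 0.069 FPKM in the libraries labelled YAP and 1.26 ± 0.087 FPKM in control libraries (limma adjusted p = 0.0252). It was under 1 FPKM in every library labelled YAP and reached the filter through the control libraries alone, so its call carries no weight. Without OTUB2, 1 of 7 genes was lower and the median change was -0.04. USP9X, another deubiquitinase, had 11.4 ± 0.93 FPKM in the libraries labelled YAP and 12.8 ± 1.39 FPKM in control libraries and did not pass (limma adjusted p = 0.254). The calls of SKP1 and OTUB2 were lost after median-of-ratios scaling and without YAP replicate 1 or 3, and OTUB2 did not reach the filter on low values when any control library was left out.

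Of 15 tested nuclear partners, 2 were higher and 5 were lower (46.7% called against 35.9% of all genes, median change -0.16). RUNX1, a runt factor, was higher, at 35.0 ± 3.74 FPKM in the libraries labelled YAP and 23.6 ± 2.01 FPKM in control libraries (limma adjusted p = 0.00128), as was the nuclear receptor coactivator NCOA1, at 9.10 ± 0.44 FPKM in the libraries labelled YAP and 6.72 ± 0.68 FPKM in control libraries. RUNX2, the runt factor of bone formation, was lower, at 6.71 ± 0.63 FPKM in the libraries labelled YAP and 8.82 ± 0.95 FPKM in control libraries (limma adjusted p = 0.0201). SMARCA4, the ATPase of the SWI/SNF remodeller, was lower, at 20.9 ± 0.52 FPKM in the libraries labelled YAP and 28.4 ± 2.69 FPKM in control libraries. JUN, an AP-1 subunit found with TEAD at enhancers, was lower, at 78.9 ± 5.23 FPKM in the libraries labelled YAP and 105 ± 15.9 FPKM in control libraries (SD, n = 3 each, limma adjusted p = 0.0125). Its call was lost with median-of-ratios scaling (limma adjusted p = 0.0538) and without YAP replicate 1 or control replicate 1. The count of lower partners was 1 after median-of-ratios scaling and 1 without YAP replicate 1, SMARCA4 in both cases, so RUNX2 lost its call there. In those settings 13.5% and 13% of all genes were lower. The count of lower partners was 3 without YAP replicate 2 or without the filter on low values, when 20.6% and 14.3% of all tested genes were lower. It was 2 without control replicate 1 or 3, when 17.9% and 20.6% were lower.

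The fifth list, target genes of the YAP/TAZ and TEAD complexes, had the most higher members. Of 20 tested, 8 were higher and 3 were lower (55.0% called, median change 0.17). Among all genes 35.9% were called, 12.9% higher and 23% lower. ANKRD1, an ankyrin repeat protein and 1 of the 8, and RBMS3, which did not pass, were under 1 FPKM in every control library and reached the filter through the libraries labelled YAP alone. Without this pair 7 of 18 genes were higher and 3 were lower, and the median change was 0.14. NUAK2, a kinase that feeds back on LATS, stood at 3.23, 3.37 and 3.10 FPKM in the libraries labelled YAP and 1.65, 1.47 and 1.31 FPKM in control libraries (log2 difference 0.77, limma adjusted p = 7.73e-05). CYR61, a matricellular protein, had 597, 630 and 557 FPKM in the libraries labelled YAP and 304, 367 and 288 FPKM in control libraries, and F3, tissue factor, had 20.3, 20.9 and 19.9 FPKM in the libraries labelled YAP and 9.18, 14.1 and 11.5 FPKM in control libraries. For each of these 3 genes the lowest library labelled YAP was above the highest control library, but they were chosen for their small adjusted p. The groups did not overlap, in either direction, for 48.3% of all tested genes. The 3 lower targets were AXL, FJX1 and NT5E. CTGF was 1 of 9 targets that did not pass (limma adjusted p = 0.456). It had 255 ± 3.42 FPKM in the libraries labelled YAP and 241 ± 25.3 FPKM in control libraries (SD, n = 3 each). Without YAP replicate 1, 5 targets were higher, when 8.57% of all genes were higher.

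**Figure D4:**
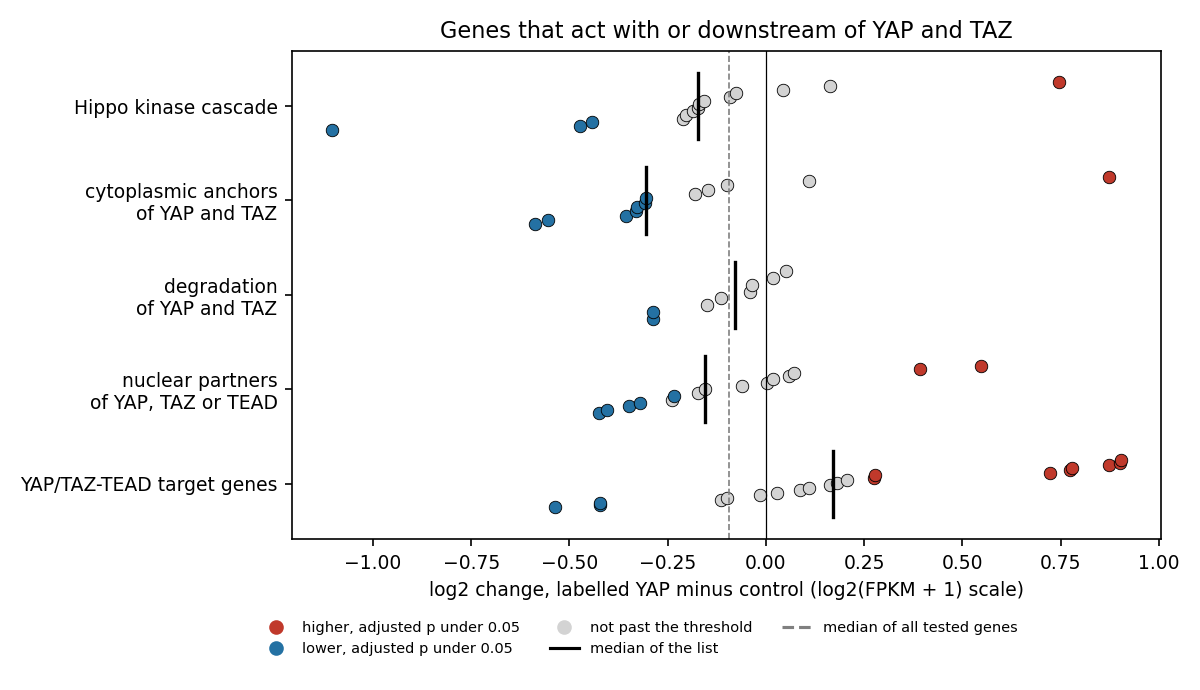
Difference in log2(FPKM + 1), labelled YAP minus control (horizontal axis), of each tested gene in the 5 lists, with the median of each list as a black bar and the median of all tested genes, -0.10, as a dashed line. The anchors have the lowest median, -0.31, and the target genes the highest, 0.17. Without ANKRD1 and RBMS3, which reached the filter through the libraries labelled YAP alone, the median of the target genes is 0.14. Every list holds genes on both sides of 0.

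The pathway annotation deposited with the values puts YAP1, WWTR1 and the 4 TEAD genes, but not VGLL3 or VGLL4, in its Hippo signaling pathway. Of 98 tested genes with that annotation 15 were higher and 31 were lower, 46.9% in all, against 35.9% of all genes. Their median change was -0.15. A narrower deposited annotation, Hippo signaling pathway - multiple species, holds the same 6 members and leaned the other way. Of its 25 tested genes 7 were higher and 3 were lower, 40.0% in all, with a median change of 0.01. Among all genes 12.9% were higher and 23% lower.

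The libraries held 32593380 to 37131015 counted fragments, and Pearson's r of log2(FPKM + 1) across tested genes was 0.993 to 0.997 within groups and 0.963 to 0.971 between them. Stromal markers were abundant in all libraries, with 8 listed genes summing to between 16740 and 17569 FPKM in the libraries labelled YAP and between 16590 and 17700 FPKM in control libraries. Most of that sum came from VIM and COL1A1, and single markers differed, 3 being higher and 2 lower. Among all genes 12.9% were higher and 23% lower. CD44, PDGFRA and VIM did not pass (limma adjusted p = 0.413, 0.121 and 0.0699). COL1A1 averaged 5890 FPKM in the libraries labelled YAP and 3674 FPKM in control libraries. PDGFRB was 1.79 times and THY1 1.24 times the control level, whereas ENG was 0.539 times and NT5E 0.745 times the control level. Markers of leukocytes summed to 11.6 to 13.6 FPKM in the libraries labelled YAP and 13.8 to 14.4 FPKM in control libraries, nearly all from LAPTM5 and CD68, with AIF1 at 0 throughout. Endothelial, epithelial and skeletal muscle markers summed to less than 1 FPKM in every library. Of the adipocyte markers, 6 listed genes summed to 9.14 to 11.03 FPKM in the libraries labelled YAP and 17.2 to 19.6 FPKM in control libraries, of which CIDEC supplied 9.56 ± 0.85 FPKM in the libraries labelled YAP and 18.3 ± 1.31 FPKM in control libraries (SD, n = 3 each). The other adipocyte markers had few reads. PLIN1, with 12 to 27 reads per library, went the other way, at 0.199 FPKM in the libraries labelled YAP and 0.130 FPKM in control libraries. ADIPOQ, with 2 to 17 reads, overlapped between the groups. PPARG had 2 to 4 reads per library, LPL 0 to 4 and LEP 0 to 1. The part of these cell types in the differences of WWTR1 and VGLL3 was not tested. In bulk RNA fewer cells that express a gene and less RNA per cell cannot be told apart.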

How the data were processed

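Sample titles gave each library its group and replicate number. The authors deposited FPKM values in a table for each group, with identical identifiers. Tools named in the submitters' processing notes are fastp, HISAT2 and HTSeq; versions, build, annotation, strand setting and the treatment of reads matching more than 1 gene are not stated, so values of close relatives such as the TEAD and 14-3-3 genes carry that uncertainty. In the table of the YAP libraries, 6 further columns of per-sample values, headed TAZ and pcDNA, match no sample title and were not used. Of 16285 symbols, 16262 matched RefSeq assembly ARS1.2, used for names alone.

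Whole reads and gene model lengths were recovered from the steps between FPKM values, within 0.05 reads for all 15958 genes above 0. The smallest length that made reads whole in every library was taken, so whole reads are the criterion and not a check. A gene above 0 in 1 library alone, such as VGLL2 or LEP, is thereby set at 1 read. Read numbers give counting error only. Genes reaching 1 FPKM in 3 or more libraries were tested on log2(FPKM + 1), a pseudocount of 1, with limma 3.58.1 in R 4.3.3 (eBayes with a trend), which was checked on simulated data. The simulated libraries were independent, with the same dispersion for every gene and no length trend. Error rates under the shared deviations of these libraries were therefore not checked. This scale understates changes of low genes. Replicates differed by a chi-square of 7.95 to 32.3 per gene, so none was taken for a library deposited again.

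The text names the members and, per list, the 3 genes with the smallest adjusted p and the most abundant tested gene. It also names the 3 genes closest in profile to YAP1 and to WWTR1. AMOTL1, ANKRD1, RBMS3, RUNX2, CTGF, AXL, FJX1, the tafazzin row and single markers were chosen after their values were seen. Some genes that this rule names are not reported here. The members and lists were chosen with earlier results of these data known. Alternatives were a pseudocount of 0.1, no filter, median-of-ratios scaling, a replicate block and each library left out. Added after seeing the data were limma-voom on recovered reads and removal of the length trend.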

Additional observations from a re-analysis of the deposited data

How the results depend on the processing

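WWTR1 stayed lower (-0.61 to -0.47, adjusted p up to 0.00956) and VGLL3 higher (0.54 to 0.79, adjusted p up to 0.0292) in all 12 alternatives. TEAD3 passed after median-of-ratios scaling (0.286) and with the replicate block (0.197), VGLL4 with the block (0.173). Thus 2 and 3 members were higher instead of 1, when 16.1% and 17% of all genes were higher. Median-of-ratios scaling left 1453 lower genes and 45.56% of calls lower, against 2476 and 64.01% in deposited FPKM. The calls in the lists of anchors, degradation and nuclear partners were then 4, 0 and 3, when 29.6% of all genes passed. Pairing: the block gave 3745 lower genes. Deviations of libraries with the same number correlated at -0.018, 0.591 and 0.597 across genes. Replicate 2 of each group went against replicate 3 of the other (-0.62 and -0.563). Replicate 1 of the YAP group correlated best with control replicate 3 (0.143). Deviations within a group cancel, so replicate 1 follows from replicates 2 and 3 and cannot decide the question. The labels do not state a pairing, so the main test used none, and whether the numbers pair the samples was not settled. The sign of differences near 0 turned when single libraries were left out: YAP1 ran from -0.028 to 0.054, TEAD1 from -0.083 to 0.16 and TEAD2 from -0.053 to 0.046. YAP1 was -0.012 without the length trend. DSTYK turned to 0.069 after median-of-ratios scaling and ran from -0.037 to 0.034 with single libraries left out, and LOC102191323 from -0.011 to 0.089. Without single libraries, higher genes numbered 909 to 1326 and lower genes 1381 to 2189, the lowest of both without YAP replicate 1. Calls were then 5 to 8 among anchors, 0 to 2 in degradation and 3 to 8 among nuclear partners. In these settings the share of all tested genes called also moved, from 21.6% without YAP replicate 1 to 33% without control replicate 3. Of 22 genes outside the members, those reported under the naming rule and the tafazzin row, 16 kept their call in all alternatives in which they were tested. Most were chosen from these data for a small adjusted p or a profile close to a member, so the count is no independent check. DSTYK and LOC102191323 count as kept because they never passed, although their signs turned. Genes chosen after their values were seen are otherwise not in this count, among them RUNX2, which lost its call in some alternatives. The planned edgeR test was not run, because the deposited unit is FPKM.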

Other observations

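The genes whose profile over the 6 libraries came closest to that of WWTR1, by the root mean square difference of centred log2(FPKM + 1), were EIF4E (0.035), EBF1 (0.037) and BMS1 (0.037). EIF4E, the cap-binding translation initiation factor, stood at 21.5, 19.4 and 21.9 FPKM in the libraries labelled YAP and 31.0, 29.9 and 35.6 FPKM in control libraries. EBF1, a transcription factor of B cells and of adipocyte precursors, stood at 2.35, 2.08 and 2.62 FPKM in the libraries labelled YAP and 3.78, 3.85 and 4.80 FPKM in control libraries. BMS1, a factor of ribosome assembly, averaged 6.13 ± 0.39 FPKM in the libraries labelled YAP and 9.33 ± 0.81 FPKM in control libraries (SD, n = 3 each). The genes closest to YAP1 included LOC102191323, described as a zinc finger protein (0.022), and the kinase gene DSTYK (0.026), with group means between 1.11 and 4.33 FPKM.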
